A study of Glycyrrhiza uralensis with 30 samples.

Results

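Of the 34445 genes listed for seedlings of the licorice Glycyrrhiza uralensis, 117 are described here. Their mean RNA level in the aboveground parts was lower than control by at least a set amount after 24 h of simulated drought. At the earlier times and in the roots it was within set limits of control. The unit of the values is TPM, an abundance per transcript length, given as a share of the library, so that the value of a gene also moves when other genes change. The members were chosen from the measured values. L was the mean of log2(TPM + 1) over the 3 libraries of a group, and a change was L at a time minus L at 0 h in the same part. A member had a change of -1.5 or lower in shoots at 24 h, changes between -1 and 1 in shoots at 2, 6 and 12 h and in roots at 2, 6, 12 and 24 h, and a mean of at least 5 TPM in its highest group. The limit of 300 genes in the rule was not reached. Every comparison with 0 h was therefore used to choose the genes, and the changes from 0 h are given as a description, with nothing read from a test of them.

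The 30 libraries formed 10 groups of 3, from stems and leaves (called shoots here) and from roots. The plants were labelled as seedlings of 60 days. Treated plants stood for 2, 6, 12 or 24 h in nutrient solution with 100 g/L of polyethylene glycol 6000 (PEG 6000), which draws down the water potential of the solution and so makes water harder to take up; the 0 h controls were labelled as distilled water. No genotype is labelled, the labels list no untreated plants at the later times, and they do not state whether the libraries of a group were separate plants. A comparison with 0 h thus spans PEG, medium and elapsed time, and a p-value measures the spread between these libraries, which may be technical. Libraries are called by the number in their title: controls have 31, 32 and 33, and the treated libraries have 1 to 12, with 3 for each time in order of time.

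When roots meet dry surroundings, water supply to the leaves falls and abscisic acid, the main drought hormone of plants, accumulates, stomata close and growth slows. In leaves, the RNA of many genes for photosynthesis, cell wall growth and cell division is commonly lowered under drought, while that of genes for protective proteins rises. Levels of many leaf genes also follow the time of day. Which of these roles the 117 genes have is not analysed here, because the files give identifiers without gene names. The label of the group would call them shoot genes that fell at 24 h only; "only" here means within the limits of the rule, since most means at 2 h were also below control, and some members had higher levels in roots. They are therefore called the 117 genes or the members.

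Library 11 of 24 h stood apart among the shoot libraries. It had 18959 genes at 1 TPM or more, where the other 14 had between 19515 and 21776. The median log2(TPM + 1) level of 655 genes that were at least 3 higher (log2) in roots than in shoots at 0 h was 0.66 in library 11, 1.96 in library 10 and 1.97 in library 12. In the controls, which helped to choose that list, it was 0.86, 1.05 and 1.77. In the other 9 shoot libraries it lay between 1.19 and 2.34. The control medians are therefore not on a par with those of the treated libraries. Of the 117 genes 1 was on that list. The part of sample make-up in the values below was not tested. In bulk tissue, fewer cells of a type and less RNA per cell cannot be told apart.

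The 117 genes together held 7144, 7184 and 6293 TPM in the shoot controls 31, 32 and 33. At 2 h they held 4732, 5186 and 3916 TPM in libraries 1, 2 and 3. They were back at 6453, 7393 and 6717 TPM in libraries 4, 5 and 6 of 6 h, and at 6199.7, 5864 and 5643 TPM in libraries 7, 8 and 9 of 12 h. At 24 h the sums were 2277, 1575 and 2521 TPM in libraries 10, 11 and 12, below each of the other 12 shoot libraries. The control mean was 6874 ± 503 TPM (SD, n = 3 here and below), that of 2 h 4611 ± 644 TPM and that of 6 h 6854 ± 485 TPM. The mean of 12 h was 5902 ± 280.5 TPM, and 24 h had 2125 ± 491 TPM. The sum went down, up and down again, and the sums of 2 h lay between those of the controls and of 24 h without overlap. The rule set the fall at 24 h and held the changes at 2, 6 and 12 h between -1 and 1. These sums therefore only describe.

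**Figure D1:**
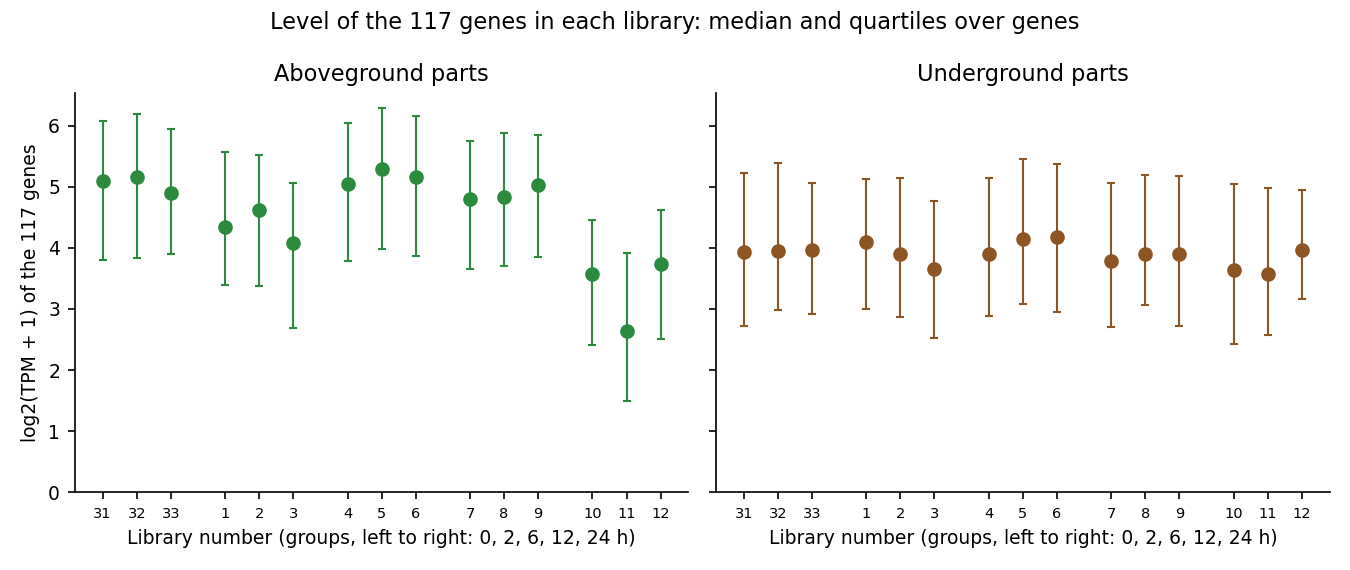
Level of the 117 genes in each of the 30 libraries, as log2(TPM + 1); points are medians over genes and bars run from the lower to the upper quartile. In shoots the medians of the 24 h libraries (3.56, 2.64 and 3.74) lie below all others, those of 2 h come next, and the root medians stay between 3.57 and 4.17.

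Single members spanned a wide range of levels. Their mean in the shoot controls ran from 4.07 to 784 TPM, with a median of 33.6 TPM. At 24 h the means ran from 0.347 to 269 TPM, with a median of 9.55 TPM. The change at 24 h, which the rule set, ran from -2.86 to -1.502 on the log2(TPM + 1) scale with a median of -1.65, while the median of all 23541 genes tested in shoots was -0.18. This scale understates changes of low genes. After rescaling the libraries by median ratios the members' median change was -1.46, and that of all tested genes was 0.02. The 3 libraries of 24 h lay below the 3 controls in 105 members, where 18.2% of all tested genes met that, and below all 12 other shoot libraries in 59 members, where 2.83% did. By limma with Benjamini-Hochberg adjustment over all tested genes, 104 of the 117 passed an adjusted p of 0.05 at 24 h, with 8.98% of tested genes called lower. The other 13 had adjusted p between 0.0562 and 0.336. The rule fixed this contrast, so these counts only describe.

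Library 11 gave the lowest of the 3 values of 24 h in 94 of the 117 genes, library 10 in 16 and library 12 in 7. The mean that chose the genes included library 11, and the same count over all tested genes is not given here. The median of the members' differences from the control mean was -1.49 in library 10, -2.16 in library 11 and -1.36 in library 12. Without library 11 the members' median change was -1.43, 108 of the 117 still had a change of -1 or lower, and 44 still had one of -1.5 or lower. Membership moved with single libraries. The rule found 57 genes without library 11, 234 without library 10, 249 without library 12 and 190 without library 3 of 2 h. The median SD between libraries over the members was 0.61 on the log2(TPM + 1) scale at 24 h and 0.22 to 0.37 in the other shoot groups. There were 13787 genes that met the same level and root conditions and had a control L of at least 1.5. Over these the median SD was 0.40 at 24 h and 0.24 to 0.31 in the other shoot groups. They were not chosen by a fall at 24 h, as the members were, with library 11 in the mean. Nothing is therefore read from the difference in SD.

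At 2 h, 110 of the 117 genes had a mean below control and 7 above it. These changes share the 3 controls with the fall at 24 h that chose the genes, and the rule limited them, so they are given as a description. The median change at 2 h was -0.74, the quartiles were -0.88 and -0.55, and the rule allowed no value of -1 or lower; the median of all tested genes was -0.15. In 55 members the 2 h change was -0.75 or lower. The 3 libraries of 2 h lay below the 3 controls in 66 members (56.4%), with 17.4% of all tested genes. Limma called 15 members lower at 2 h (12.8%), and none higher, where 5.48% of tested genes were called lower and 4.96% higher; nothing is read from this count. In 89 members 2 h was the group with the second-lowest mean, after 24 h; it was 12 h in 23 members and 6 h in 5. The rule put the mean of 24 h below that of 2 h in every member, so the following count only describes. All 3 libraries of 24 h lay below all 3 of 2 h in 64 members, where 8.90% of tested genes met that.

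Among genes past the 24 h and level conditions, the condition on 2 h in shoots alone removed more genes than any other condition alone. In all, 1256 genes had the required fall at 24 h and the required level, and 953 of them missed the 2 h condition in shoots. Of these, 326 missed that condition alone, and all 326 were lower than control at 2 h. By contrast 7 genes missed only the 6 h condition and 10 only the 12 h condition in shoots, while 25 missed only the 24 h condition in roots. The values ran on across both limits. At the 24 h limit the nearest gene inside was at -1.502 and the nearest outside at -1.494, with 46 members within 0.1 inside the limit and 48 other genes within 0.1 outside it. At the 2 h limit the nearest gene inside was at -0.993 and the nearest outside at -1.002, with 25 members and 32 other genes within 0.1. The 326 genes beyond the 2 h limit had a median change of -1.51 at 2 h and -1.85 at 24 h, and of 0.06 and -0.04 at the times between.

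**Figure D2:**
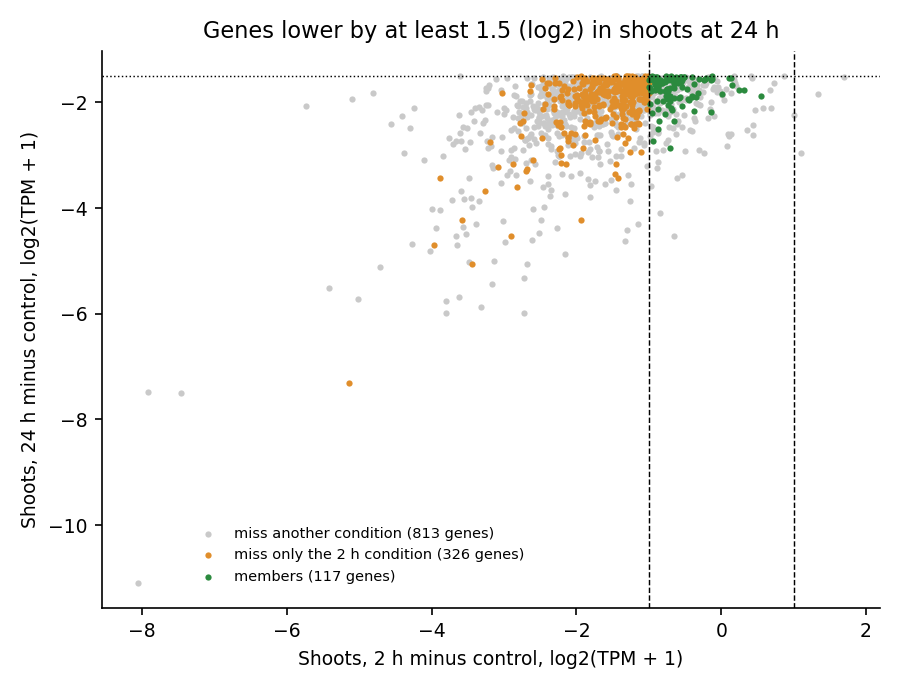
Change from control in shoots at 2 h (horizontal) and at 24 h (vertical), as differences of log2(TPM + 1), for the 1256 genes that were lower by at least 1.5 at 24 h and reached 5 TPM; each point is a gene. Dashed lines mark the 2 h limits and the dotted line the 24 h limit: the 117 members (green) are continuous with the 326 genes (orange) that missed only the 2 h condition.

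Between 2 h and 24 h the members' levels stood near control. The median change was 0.09 at 6 h, with 66 genes above and 51 below control, and -0.20 at 12 h, with 38 above and 79 below; the median of all tested genes was -0.07 and 0.10. Limma called none of the members against control at 6 h or at 12 h. Of all tested genes 0% were called at 6 h, and 0.234% were called higher and 0.633% lower at 12 h. At an unadjusted p of 0.05, 6 members were higher at 6 h and none lower, and 8 were lower at 12 h and none higher. Of the 13783 tested genes with the same level and root conditions, 392 were then higher and 429 lower at 6 h. At 12 h 758 of them were higher and 448 lower. The rule held both changes of the members within 1, so nothing is read from these counts. The highest of the 5 shoot groups was 6 h in 59 members, 0 h in 35, 12 h in 20 and 2 h in 3.

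The difference between 6 h and 2 h used neither the controls nor the libraries of 24 h, and the rule bounded it alike in both directions, to between -2 and 2. It was chosen after the values were seen. Of the 117 genes 106 were higher at 6 h than at 2 h, and the median difference was 0.71 on the log2(TPM + 1) scale; the median of all tested genes was 0.06. Limma called 30 members higher at 6 h than at 2 h (25.6%), with differences from 0.67 to 1.67 and adjusted p from 6.73e-04 to 0.0478, and none lower, also at an unadjusted p of 0.05. Among all tested genes 6.97% were called higher and 5.36% lower, and among the 13783 tested genes with the same level and root conditions 7.22% and 5.06%. At an unadjusted p of 0.05, 2049 of those 13783 were higher and 1434 lower. Of the 326 genes that missed only the 2 h condition, 221 (67.8%) were called higher and 0 lower. Their low 2 h level and a 6 h change held within 1 fixed that direction. In all 30 called members the 3 libraries of 6 h lay above the 3 of 2 h, which only describes, since the same comparison called them. Over all 117 genes this held in 66, and the share over all tested genes is not given here. The number called was 13 without library 3 of 2 h, and 19, 14 and 14 without library 4, 5 or 6 of 6 h; it was 50 with a quality weight per library.

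The member with the largest called difference, named by it after the values were seen, was a gene of low level. It was at 3.01, 3.28 and 4.05 TPM in libraries 1, 2 and 3 of 2 h and at 15.01, 14.1 and 10.6 TPM in libraries 4, 5 and 6 of 6 h. Its controls, at 6.11, 14.5 and 3.92 TPM, spread over most of that range. The difference was 1.67 (SE 0.44, limma adjusted p = 0.0253). At 12 h it was at 2.04, 3.45 and 4.27 TPM, all below 6 h, although that step was not called (-1.77, adjusted p = 0.0679).

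From 6 h to 12 h the members' median difference was -0.22, with 2 members called lower and none higher. Of all tested genes 1.14% were called lower and 0.497% higher. At an unadjusted p of 0.05, 2 members were higher and 22 lower. Of the 13783 tested genes with the same level and root conditions, 1546 were then higher and 736 lower. Between 12 h and 2 h 18 members were called higher and 1 lower, 15.4% and 0.855%, where 11.1% and 6.66% of tested genes were.

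**Figure D3:**
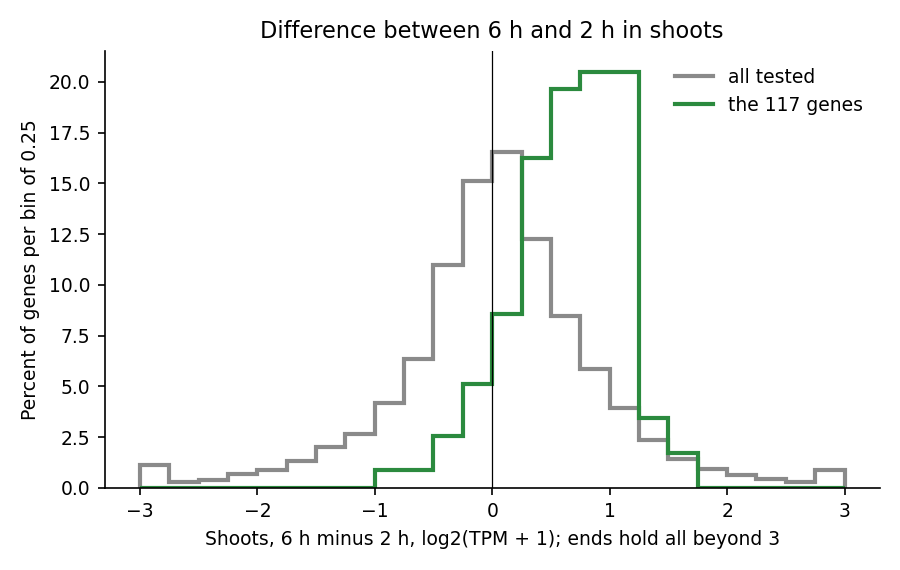
Difference between 6 h and 2 h in shoots on the log2(TPM + 1) scale, in bins of 0.25, as percent of the 117 genes (green) and of all 23541 tested genes (grey); the end bins hold all values beyond 3. The members lie mostly to the right of 0, with a median of 0.71, and the tested genes centre on 0.06.

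Glyur000141s00009809 had the highest control level of the members whose 24 h and control libraries did not overlap. It was at 809.7, 875.4 and 667 TPM in shoot controls 31, 32 and 33. At 2 h it was at 391, 604 and 315 TPM in libraries 1, 2 and 3. All 2 h values were below all controls. At 6 h it was at 769.8, 665 and 679.5 TPM in libraries 4, 5 and 6, and at 12 h at 559.8, 708 and 604 TPM in libraries 7, 8 and 9. At 24 h it was at 321, 344 and 141 TPM in libraries 10, 11 and 12, so that here library 12 and not library 11 was lowest. The values of 2 h and 24 h overlapped. Its log2 change was -1.64 at 24 h and -0.89 at 2 h (SE 0.33 each), and it was -0.15 and -0.33 at 6 and 12 h. In roots it was at 0.43, 1.13 and 0.60 TPM in the controls and no higher than 1.32 TPM in the treated libraries, except for 16.1 TPM in library 3 of 2 h and 5.03 TPM in library 6 of 6 h. Those 2 root libraries also had the highest medians of the 1172 genes at least 3 higher (log2) in shoots at 0 h. The medians were 1.77 and 1.60 on the log2(TPM + 1) scale. The other 13 root libraries, with the root controls that helped to choose that list, lay between 0.81 and 1.20. Of the members it had the largest excess of shoots over roots at 6 h, though not at 2 h: the difference at 6 h was 8.39 (SE 0.68, limma adjusted p = 6.84e-10) on the log2(TPM + 1) scale.

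Glyur010157s00046762 had the largest fall at 24 h under the same condition, from a low level. It was at 21.7, 10.3 and 6.33 TPM in shoot controls 31, 32 and 33. At 24 h it was at 2.13 and 0.56 TPM in libraries 10 and 11 and listed at 0 in library 12. Its 2 h libraries had 10.3, 10.9 and 2.25 TPM and its 6 h libraries 3.44, 9.10 and 5.90 TPM. Libraries 7, 8 and 9 of 12 h had 14.6, 12.6 and 9.38 TPM. The 24 h values lay below all of these, and the other 3 times overlapped the controls. Its log2 change at 24 h was -2.86 (SE 0.58), and -4.42 with a pseudocount of 0.1. In roots it was at 13.2, 13.3 and 8.32 TPM in the controls and between 2.33 and 27.6 TPM in the other 12 libraries.

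Another member, chosen after the values were seen because its largest change outside 24 h in shoots was the smallest of the 117, came closest to a fall at 24 h alone. It was at 100.3, 89.0 and 97.0 TPM in shoot controls 31, 32 and 33. At 2 h it was at 74.4, 79.8 and 74.9 TPM, all below the controls. At 6 h it was at 103.2, 129.0 and 125.6 TPM and at 12 h at 102.7, 103.4 and 93.3 TPM. At 24 h it was at 37.1, 14.6 and 32.5 TPM in libraries 10, 11 and 12, below every other shoot library. Its change at 24 h was -1.83 (SE 0.26), after -0.32, 0.31 and 0.06 at the earlier times. Its roots were at 34.7, 31.8 and 20.9 TPM in the controls and at 27.4, 30.5 and 23.5 TPM at 24 h. Shoots exceeded roots by 1.71 in control (SE 0.25, limma adjusted p = 7.64e-06), and at 24 h the difference was -0.05 (adjusted p = 0.910).

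**Figure D4:**
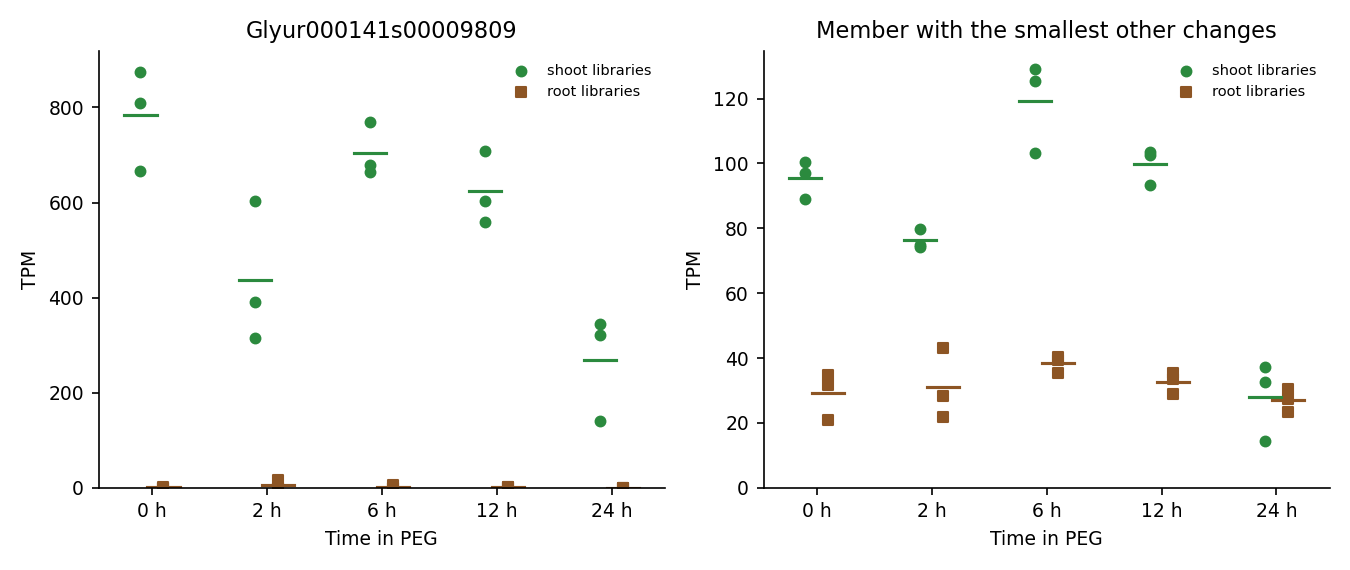
TPM by library of Glyur000141s00009809 (left) and of the member with the smallest changes outside 24 h in shoots (right), against time; circles are shoot and squares root libraries, and short lines are means of 3. At left the roots stay near 0 and the shoot mean of 2 h lies between those of control and 24 h; at right the shoots reach the root level at 24 h (28.1 and 27.2 TPM).

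In roots, where the rule held all changes between -1 and 1, the members' summed level moved less than in shoots. The sum was 4005 ± 253 TPM in the root controls and 3733 ± 81.2 TPM at 2 h. It was 3916 ± 188 TPM at 6 h, then 3418 ± 148 TPM at 12 h, and ended with 3132 ± 95.3 TPM at 24 h. The 3 root libraries of 24 h held 3062, 3095 and 3241 TPM and the root controls 4182, 4118 and 3715 TPM, so they did not overlap. The median change in roots was -0.26 at 24 h, after -0.11, 0.02 and -0.08 at the earlier times. At 24 h 88 members were below and 28 above their root control, and the median of all genes tested in roots was 0.03. With median-ratio rescaling or quantile normalization the root median at 24 h was -0.28 or -0.31, while that at 2 h was -0.0017 or 0.03.

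Before treatment the 117 genes were more often higher in shoots than in roots. Limma on all 30 libraries called 57 of them higher in shoots (48.7%) and 8 higher in roots (6.84%) at 0 h, where 16.9% and 19.7% of 25420 tested genes were called. The rule compared no part with the other, but the controls entered it, and it asks for a shoot control level high enough to fall by 1.5. Among 13784 genes that met the same level and root conditions and a control L of at least 1.5, 20.7% were higher in shoots and 20.2% higher in roots. The bias was not particular to the members. Of the 326 genes that missed only the 2 h condition, 180 (55.2%) were called higher in shoots and 10 (3.07%) higher in roots at 0 h. For those 326 the counts were 183 and 12 at 6 h, and 178 and 8 at 12 h. The values of 6 h come from other libraries but are no independent check, since the rule held the change from 0 h to 6 h within 1 in each part and so tied the difference at 6 h to that at 0 h; the same holds for 2 h and 12 h. At 6 h 59 members were called higher in shoots (50.4%) and 7 higher in roots (5.98%), where 15.8% and 23.4% of tested genes were, and 19.7% and 25.2% of the genes with the same level and root conditions, which were not held to the shoot condition of 6 h. At 12 h the counts were 51 and 5, where 17.6% and 17.5% of tested genes were called. The 8 of 0 h became 5 without root control 32 or 33 and 4 without shoot control 31 or 32. The 5 of 12 h became 3 without shoot library 8 of 12 h, 8 without shoot library 11 of 24 h, 8 with library weights or only the 6 libraries compared, and 9 with quantile normalization.

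At 2 h fewer members were called higher in shoots and more in roots. Limma called 42 members higher in shoots and 19 higher in roots, where 16.6% and 21.3% of tested genes were called; the 19 became 12 without shoot library 3 of 2 h. The median difference, shoots minus roots, was 0.30 at 2 h on the log2(TPM + 1) scale, and it was 0.83 both at 0 h and at 6 h and 0.60 at 12 h. At 24 h, where the rule had set the shoot level low, the median was -0.67, with 36 members higher in shoots by mean and 81 lower; limma called 16 higher in shoots and 53 higher in roots, where 15.8% and 28.7% of tested genes were called. Over all tested genes the median was -0.10, -0.13, -0.19, -0.04 and -0.32 at the 5 times. By means, 88 members were higher in shoots at 0 h and 70 were at 2 h, against 96 at 6 h and 93 at 12 h. The change from 2 h to 6 h was called different in shoots and roots in 6 members, all higher in shoots, where 2.01% of tested genes were called higher and 2.55% lower.

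**Figure D5:**
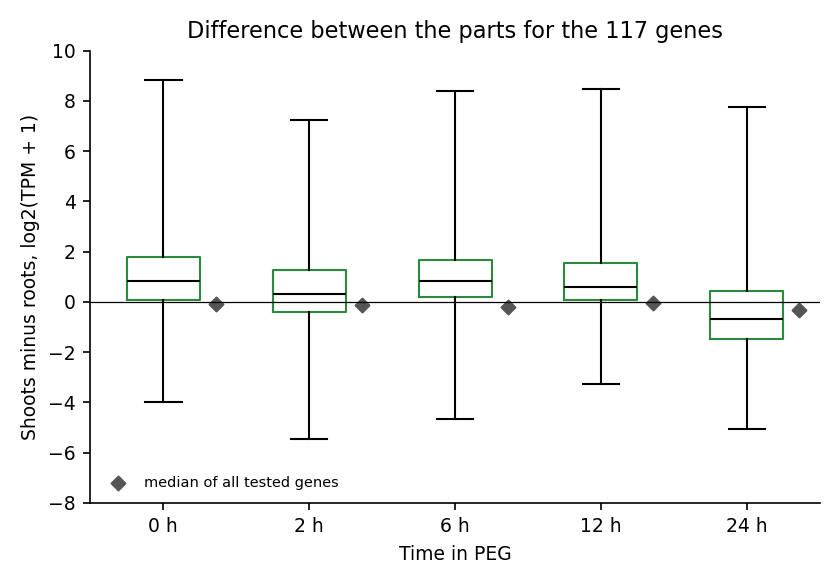
Difference between shoots and roots for the 117 genes at each time, as group means of log2(TPM + 1); boxes show quartiles and median over genes, whiskers the lowest and highest gene, and diamonds the median of all tested genes. The members' median is 0.83 at 0 h and 6 h, 0.30 at 2 h and -0.67 at 24 h.

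The members differed among themselves in their root level. The 59 that were higher in shoots at 6 h had a median of 37.4 TPM in shoot controls and 9.12 TPM in root controls. At 24 h their shoot median was 11.3 TPM and their root median 7.42 TPM, and in 27 of them the shoot mean was then the lower. The 51 that were not called at 6 h had medians of 24.7 TPM in shoot and 21.3 TPM in root controls, and of 8.18 and 16.2 TPM at 24 h, when 47 were lower in shoots. The 7 called higher in roots had medians of 18.4 and 151 TPM in the controls and of 5.63 and 72.0 TPM at 24 h. The call at 6 h set the subgroups apart, and the rule tied 0 h and 24 h to it. These levels and counts therefore only describe. The median change in shoots was -1.68, -1.61 and -1.61 at 24 h in the 3 subgroups and -0.74, -0.74 and -0.66 at 2 h; the rule limited both changes in every member, so nothing is read from how near these medians lie.

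The member with the largest excess of roots over shoots at 6 h, named by that property after the values were seen, had a fall that rested on a single control. It was at 4.06, 3.76 and 40.8 TPM in shoot controls 31, 32 and 33 and at 6.14, 0.44 and 2.89 TPM in libraries 10, 11 and 12 of 24 h. The groups overlapped, and its change of -1.55 at 24 h had an SE of 0.91. In roots it was at 104, 135 and 289.8 TPM in the controls and at 106, 100.8 and 135 TPM at 24 h. Its difference at 6 h, shoots minus roots, was -4.65 (SE 0.73, limma adjusted p = 1.64e-05).

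The identifiers were only counted, and whether the members cluster in the genome was not tested. Counting the number before the letter s in each identifier, the 117 genes carried 111 different numbers of the 4853 in the files, no number was shared by more than 2 members, and 1 pair of members stood next to each other in the list under the same number. Reads of paralogs with nearly the same sequence may have been split between them, so single members are uncertain where the genome holds such a copy.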

How the data were processed

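Each library came with its own deposited table, which per the file headers gives TPM, for the same 34445 genes. Per the submitters' processing notes, the tools were, with no version, role or order stated, edgeR, DESeq2, RSEM, StringTie, HISAT2 and fastp; no source used here gives a genome build or annotation. TPM keeps no read depth, so depth is unknown and no counting interval is given. Totals per library ran from 928931 to 972586 TPM. No libraries were identical.

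Members and lists were chosen with earlier results of these data known. Values were tested as log2(TPM + 1) in R 4.3.3 with limma 3.58.1 (moderated variances that follow the mean level, Benjamini-Hochberg adjustment within each comparison over all tested genes, threshold 0.05). A gene was tested if 3 or more libraries of the fit reached 1 TPM. All 117 members passed that filter. Comparisons within shoots used the 15 shoot libraries, those between the parts all 30. The fits were also run on simulated data with the same spread of a gene in every group. Those data do not cover the wider spread of the shoot libraries at 24 h, so nothing is read from them here. The 2 genes given by identifier were those with the largest fall and the highest control level among members without overlap at 24 h. Gene lists by name were planned and could not be applied. Alternatives were filters of none or 5 TPM, median-ratio scaling, quantile normalization, no trend, a pseudocount of 0.1, library weights, fits to only the 6 libraries of a comparison, a block for the library number, and each library left out in turn. Figures were drawn with matplotlib 3.10.9.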

Additional observations from a re-analysis of the deposited data

Results flagged for a closer look

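The change from 2 h to 6 h differed between shoots and roots in 6 members by limma's test of the difference itself, an interaction term chosen after the values were seen. In all 6 it was higher in shoots, by 1.26 to 1.71 on the log2(TPM + 1) scale, with SE from 0.30 to 0.49 and adjusted p from 0.00289 to 0.0497. Among the 25420 tested genes 2.01% were called higher and 2.55% lower. Of the 326 genes that missed only the 2 h condition in shoots, chosen by a low 2 h level, 112 (34.4%) were called higher and 0 lower. In all 6 the mean was higher at 6 h than at 2 h in shoots and lower in roots. Over the 117 genes the difference was above 0 in 95, with a median of 0.54. The count depended on single libraries. It was 1 without root library 3 of 2 h, root library 4 or 5 of 6 h, shoot library 3 of 2 h or shoot library 6 of 6 h, and 2 without shoot library 5 of 6 h. It was 3 without root library 2 of 2 h, root library 6 of 6 h, shoot library 4 of 6 h, root control 32, or shoot control 31 or 33.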

How the results depend on the processing

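Of the 117 genes, 48 were among the 77 found by the rule after median-ratio scaling, 62 among the 90 after quantile normalization and 84 among the 157 with a pseudocount of 0.1. With a 24 h limit of -1 the rule met its limit of 300 genes, out of 727, and with -2 it found 15. Leaving out single libraries gave 57 to 249 genes. The members' median change at 24 h ranged from -1.87 to -1.43 when single libraries were left out. With only the 6 libraries compared, 65 members were called lower at 24 h in place of 104. The 30 called higher at 6 h than at 2 h became 50 with library weights and 13 to 45 without single libraries. Those called higher in roots became 5 at 0 h and 8 at 12 h with only the 6 libraries compared, and 8 at 12 h with library weights and 9 with quantile normalization; without single libraries their number was 4 to 9 at 0 h, between 12 and 24 at 2 h, and from 3 to 8 for 12 h. The 6 members with a different change in the parts became 15 with library weights, 11 with quantile normalization, 3 without a filter, with a pseudocount of 0.1 or without trend, and 1 to 9 without single libraries. The counts over all tested genes moved with these: 2115 were called lower at 24 h, 1270 without library 11, 1307 without control 31 and 815 with only 6 libraries. Those called higher at 6 h than at 2 h were 1640, 2506 with library weights, and 979, 995 and 941 without library 3, 5 or 6.

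Shoot and root libraries share numbers. Same-numbered libraries deviated together with correlations from 0.0973 to 0.345, over 0.1 in 14 of 15 pairs, and each correlated best with its own number in 15 of 15, a hint from the data and not the design. With the number as a replicate block, 60, 47, 61 and 55 members were called higher in shoots at 0, 2, 6 and 12 h, and 9, 19, 7 and 7 higher in roots; 6 changed differently from 2 h to 6 h. Comparisons within shoots share no numbers. Depth is unknown, so how far low levels limit these values could not be measured.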

Other observations

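Leaving a library out of the choice gives a value in it that the choice did not use. The libraries it was compared with did help to choose the genes, so the changes below are not independent of the choice. Chosen without library 10, 234 genes had a median change of -1.65 in the other 2 libraries of 24 h and of -1.04 in library 10. Chosen without library 12, 249 genes had -1.70 in the kept libraries and -0.94 in library 12. Chosen without library 11, 57 genes had -1.67 in the kept libraries and -1.86 in library 11. The left-out value was below control in 217 of the 234, 230 of the 249 and 55 of the 57 genes. Of all 23541 tested genes, 14144 had a 24 h mean below control. With a control left out, the median change measured against that control was -1.64, -1.79 and -1.56 for controls 31, 32 and 33, where the kept controls gave -1.67, -1.67 and -1.70.

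For 2 h the same was done with the 2 h libraries. Chosen without library 3 of 2 h, 190 genes had a median 2 h change of -0.74 in the kept libraries and of -1.26 in library 3, where 131 of them were at -1 or lower. Without library 1 or 2 the left-out median was -0.70 or -0.68. The 25 genes that missed only the root condition of 24 h were all lower than control in roots at that time.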
